A study of Mus musculus with 8 samples.

Results

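The genes described here are 49 genes of DNA damage signalling and repair, taken by symbol from the authors' deposited table of 17441 genes. All 49 were in the table. They were compared between primary mouse embryonic fibroblasts of wild-type littermates and of Cbx2-/- embryos, which carry a targeted deletion of Cbx2. The CBX2 protein reads histone methylation for polycomb repressive complex 1, which keeps developmental genes silent. Fibroblasts were taken at embryonic day 18 and collected at passage 2, with 2 RNA libraries per genotype from 200000 cells each and about 4.62 Gb of sequence per library. As no label says that replicate libraries are from different embryos, p-values measure the spread between these libraries, which may be technical. The authors' deposited table gives 1 value per genotype, a normalised read signal. Where reads are few, both values of a gene are drawn toward each other, so they are not plain means of the libraries.

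Cells answer DNA damage in steps. The kinases ATM and ATR sense double-strand breaks and single-stranded DNA and pass the signal to the checkpoint kinases CHK2 and CHK1, while scaffold proteins and ubiquitin ligases gather at the break. Breaks are then joined end to end or copied from the sister chromatid by homologous recombination, and damaged or mispaired bases are cut out by base excision, nucleotide excision or mismatch repair. Many recombination and checkpoint genes are transcribed with the replication genes in S phase, under the E2F transcription factors, whereas most excision and end joining genes are expressed through the whole cycle. Fibroblasts in culture divide and so use both kinds.

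Promoters of E2F-regulated genes often hold the motif TTTCCCGC, TTTCGCGC, TTTGCCGC or TTTGGCGC. These letters were searched on both strands in RefSeq promoters (GRCm38.p6, 250 bases before to 50 after an annotated start), which were at hand for 40 of the 49 genes. A gene can have several starts, some of them inside its outer bounds, and it was counted once if any window held a match. A match was found in 9 of the 40 (22.5%), against 2.61% of all 27025 genes with a promoter in that set and 4.16% of the 13621 that are in the authors' deposited table. Of the 9 genes, 5 belong to the 14 members listed as peaking in S phase or as E2F targets (the S phase members). Of these 14, 12 had a promoter. Because known E2F targets were put on that list, its matches are not separate evidence about it. The sites of the 5 genes are shown because 13 of those 14 genes had the lower value in knockout, as described further on. For Topbp1, the member that fell past the threshold, the whole promoter is given (chr9:103305077-103305376, plus strand), with the match in capitals. For the others the match is shown, in capitals, with 11 bases on either side. Clspn, a repair gene outside the 49 that also fell, is given last. A match to these letters is a description of the sequence and does not show that a factor is bound.
Topbp1: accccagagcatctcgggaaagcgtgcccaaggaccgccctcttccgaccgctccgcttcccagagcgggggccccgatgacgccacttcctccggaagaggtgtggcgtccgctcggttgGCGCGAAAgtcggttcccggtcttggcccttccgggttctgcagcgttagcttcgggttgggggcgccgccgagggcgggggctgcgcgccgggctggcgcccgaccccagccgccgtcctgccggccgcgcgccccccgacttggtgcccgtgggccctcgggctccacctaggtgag
Brca2, chr5:150522442-150522471, plus strand: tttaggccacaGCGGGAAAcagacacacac
Bard1, chr1:71103163-71103192, minus strand: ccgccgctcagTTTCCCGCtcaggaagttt
Msh6, chr17:87975054-87975083, plus strand: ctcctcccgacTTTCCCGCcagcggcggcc
Lig1, chr7:13278841-13278870, plus strand: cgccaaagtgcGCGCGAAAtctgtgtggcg
Clspn, chr4:126556990-126557019, plus strand: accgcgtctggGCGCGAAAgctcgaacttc
The other members with a match were Chek2, Mdc1, Rad51c and Xrcc6. Their sites are not printed, so the sites above come from a group picked by its direction of change. Rad51c (matches at -5 and 11 from its annotated starts) was the only member of the 9 with a higher value in knockout (log2 fold change 0.08). In the authors' deposited table, 8 of the 9 members with a match had a negative log2 fold change (median -0.13, 1 lower and 0 higher past the threshold). The same held for 19 of the 31 without a match (median -0.02, 0 lower and 1 higher). Xrcc2, Prkdc, Nbn, Wrn, Rad50, Fancd2, Exo1, Rad51d and Rbbp8, among them a gene that rose and 2 S phase members, had no promoter at hand and are in neither count. As 5 of the 9 with a match are S phase members, this split is not separate from the direction of that list. The direction of all genes with a match was not computed, and a link between motif and direction was not tested.

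Loss of Cbx2 left the transcript level of most repair genes close to that of wild type. A gene was called where the DESeq2 adjusted p of the authors' deposited table was under 0.05. By this measure 2 of the 49 rose (Tdg and Wrn), 1 fell (Topbp1) and 46 were not past the threshold, so 6.12% were called. The rise of Tdg is uncertain, since it turns to a log2 ratio of -0.28 when summed with a second row, as described under base excision. Without Tdg 1 rose and 1 fell of 48 (4.17%). Over all 17441 genes 7.78% were called, 3.48% higher and 4.30% lower, so the share among repair genes was near the background. None of the 49 reached a 2-fold change, a size that 1.69% of all genes combined with an adjusted p under 0.05. In 34 of the 49 the absolute log2 fold change was under 0.2, and in 22 it was under 0.1.

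The direction of the differences was uneven. In 34 of the 49 genes (69.4%) the knockout value was the lower one, against 49.3% of all genes, and the median log2 fold change was -0.06 against 0.0036. At an unadjusted DESeq2 p under 0.05, which 14.6% of all genes passed, 3 members were higher and 3 lower. The 3 added to the called genes were Apex1, Exo1 and Blm. The authors' DESeq2 adjusted p was 0.0676 for Apex1, 0.0752 for Exo1 and 0.112 for Blm.

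**Figure D1:**
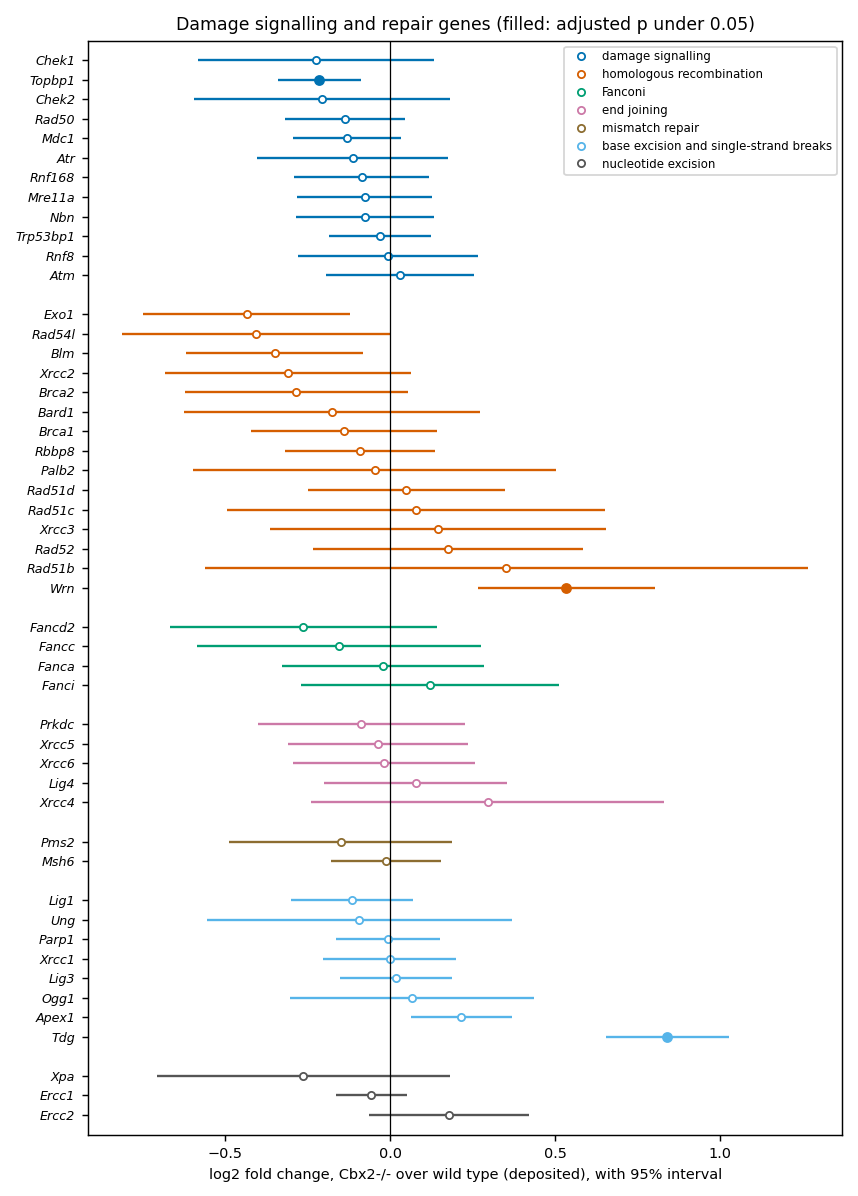
Deposited log2 fold change (Cbx2-/- over wild type, horizontal axis) of the 49 genes by role, with the 95% interval implied by the deposited p; filled points have an adjusted p under 0.05. Topbp1 (-0.21), Wrn (0.53) and Tdg (0.84) are the filled points, and most other intervals cross 0.

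How large a change could have been seen differs between genes, because the table gives 1 value per genotype and its p-values carry the only measure of spread for most of them. A standard error was derived from each deposited fold change and p. It ran from 0.055 for Ercc1 to 0.47 for Rad51b on the log2 scale, with a median of 0.14. At these errors the smallest log2 fold change that would have been called was 0.16 in Ercc1, 0.42 at the median and 1.35 in Rad51b. Of the 46 genes not called, 31 had a 95% interval that stayed within a 1.5-fold change in either direction, and 45 stayed within 2-fold. The exception at 2-fold was Rad51b. Since fold changes of genes with few reads are drawn toward 0, these intervals are on that drawn-in scale too.

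Signalling genes differed mostly in the same direction. Of the 12 sensors, kinases, scaffolds and ubiquitin ligases, 1 fell, none rose, and 11 had a lower value in knockout, with a median log2 fold change of -0.10. The called share of 8.33% was near the 7.78% of all genes. Topbp1 encodes the scaffold that switches on ATR at stalled forks. The authors' deposited table has it at 2510 in wild type and 2164 in knockout. It fell by 13.8%, a log2 fold change of -0.21 (95% interval -0.34 to -0.09) with a DESeq2 adjusted p of 0.0129. The call was lost when the standard error was raised by 20% (adjusted p = 0.0854). Topbp1 lies on chromosome 9 from 103305167 to 103350428 (GRCm38.p6) and overlaps no other gene of the table.

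The kinase genes Atr, Chek1, Atm and Chek2 were not past the threshold. In the authors' deposited table Atr, the kinase of single-stranded DNA, was at 338 in wild type and 313 in knockout (log2 fold change -0.11, 95% interval -0.40 to 0.18). Chek1, which carries the ATR signal, was at 227 and 194 (-0.22, interval -0.58 to 0.13). Both intervals include no change as well as a fall of the size seen in Topbp1. Atm, the kinase of double-strand breaks, was the only gene of the 12 that the authors' deposited table has higher in knockout, at 600 and 612 (0.03, interval -0.19 to 0.25). Chek2, the target of ATM, was at 188 and 163 (-0.21, interval -0.60 to 0.18).

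The MRN complex, which binds broken ends and recruits ATM, showed 3 small differences of the same sign. In the authors' deposited table Mre11a was at 696 in wild type and 660 in knockout (-0.08), Rad50 at 946 and 861 (-0.14) and Nbn at 670 and 635 (-0.08). None was past the threshold, with adjusted p-values of 0.931, 0.639 and 0.931 from the authors' DESeq2 comparison. The mediators were as close. Mdc1, which binds the phosphorylated histone at breaks, was at 1300 and 1188 (-0.13), and Trp53bp1, the 53BP1 scaffold that favours end joining, at 1355 and 1328 (-0.03) in the authors' deposited table. Trp53bp1 overlaps Map1a, which fell (-0.31), and whether counting used strand is not stated in the labels. For the ubiquitin ligase genes the authors' deposited table gives 375 and 373 in Rnf8 (-0.0077) and 721 and 679 in Rnf168 (-0.09). A readthrough transcript of Rnf8 is listed apart as Rnf8-cmtr1 (26.7 and 28.7), so reads of Rnf8 may be split.

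Homologous recombination held the most negative fold change of the 49 (Exo1) and 1 of the 2 rises (Wrn). Of its 15 genes 1 rose, none fell and 9 had a lower value in knockout (median -0.09). The called share of 6.67% was near the 7.78% of all genes. Wrn, the helicase lost in Werner syndrome, was at 319 in wild type and rose to 462 in the authors' deposited table, an increase of 44.7%. Its log2 fold change was 0.53 (95% interval 0.27 to 0.80) and its DESeq2 adjusted p 0.00218. Wrn lies on chromosome 8 from 33234372 to 33385543 (GRCm38.p6) and overlaps no gene of the table. Its neighbour Purg, which starts just beyond it, had values of 110 and 152 in the authors' deposited table and was not past the threshold (log2 fold change 0.47, DESeq2 adjusted p 0.269).

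Blm, the other RecQ helicase of the group, had the opposite sign. It dissolves recombination intermediates, and the authors' deposited table has it at 431 in wild type and 338 in knockout (-0.35, 95% interval -0.62 to -0.08, DESeq2 adjusted p 0.112). Exo1, the nuclease that resects broken ends, was at 316 and 234 (-0.43, interval -0.75 to -0.12). Rad54l, a motor protein of recombination, was at 182 and 137 (-0.41, interval -0.81 to 0.00036, DESeq2 adjusted p 0.343). None of these was past the threshold over all genes. The authors' DESeq2 p-values were also readjusted by Benjamini-Hochberg over only the better covered genes (mean of 230 or more, the median of all). Exo1 then passed (readjusted DESeq2 p 0.0499), and so did Apex1 (0.0448).

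The genes of the BRCA proteins, which act on resected DNA, were not past the threshold. In the authors' deposited table Brca1 was at 391 and 355 (-0.14), its partner Bard1 at 132 and 117 (-0.18) and Brca2 at 265 and 218 (-0.28). Palb2, which links both BRCA proteins, was at 78.2 and 75.6 (-0.05). The interval of Brca2 ran from -0.62 to 0.05 and that of Palb2 from -0.60 to 0.50, so for Palb2 anything from a fold of 0.661 to 1.42 is within its error. Rbbp8, which encodes the resection factor CtIP, was at 564 and 529 (-0.09) in the authors' deposited table.

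Rad51b, Rad51c, Rad51d, Xrcc2 and Xrcc3, which work together in recombination, were scattered around 0. Their deposited log2 fold changes were 0.35 for Rad51b, 0.08 for Rad51c, 0.05 for Rad51d, -0.31 for Xrcc2 and 0.14 for Xrcc3, none past the threshold. Rad52, an annealing factor, was at 0.18. For Rad51b and Rad51c, and for Xrcc4 of end joining, the reads of each library could be recovered from the deposited mean, since a single set of 4 whole numbers matched it within 6e-09. For Palb2 and Xrcc3, of a similar level to Xrcc4, 2 sets matched, so no reads are given. A match by chance is more likely the more reads a gene has, so the reads of Xrcc4 are less certain than those of Rad51b and Rad51c. Which library of a genotype is replicate 1 is not known from the table.

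Rad51b had 23 and 10 reads in the wild-type libraries against 23 and 25 in the knockout libraries. Both knockout libraries and 1 wild-type library were thus alike, the other wild-type library was low, and the genotypes overlapped after scaling. Divided by the size factors the means were 16.8 ± 8.59 (SD, n = 2) in wild type and 23.2 ± 1.41 (SD, n = 2) in knockout. The log2 ratio of these means was 0.47. It was 0.03 without the low wild-type library and 1.12 without the other, so 1 library decided it. Rad51c had 76 and 60 reads in wild type against 71 and 82 in knockout, a log2 ratio of 0.09 with overlapping genotypes. Its ratio turned to -0.03 without the low wild-type library and to -0.02 without the high knockout library. Xrcc4 had 87 and 63 reads in wild type against 102 and 96 in knockout, a log2 ratio of 0.32 (0.15 without the low wild-type library, 0.51 without the other), and after scaling both knockout libraries were above both wild-type libraries. In all 3 genes the wild-type library with the size factor of 0.935 was the low one. Among other genes with recovered reads, that library was the higher one in some and the lower one in others after scaling.

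**Figure D2:**
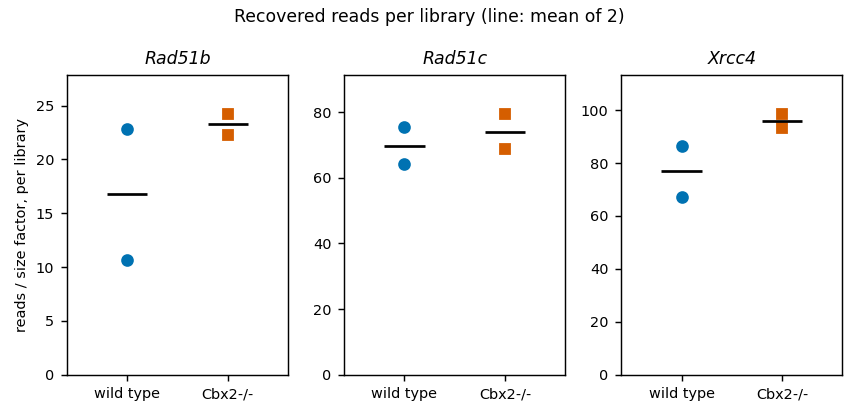
Reads divided by the size factor of the library (vertical axis, from 0) for the 3 members whose reads could be recovered; points are libraries and lines the mean of 2. Rad51b and Rad51c overlap between genotypes, and the Xrcc4 values of knockout (93.1 and 98.7) lie above those of wild type (67.3 and 86.4).

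The Fanconi anaemia genes, which repair crosslinks between DNA strands, had no call among 4. Fancd2 and Fanci, whose proteins form the clamp of the pathway, differed in sign. Fancd2, in the authors' deposited table, was at 170 and 142 (-0.26, 95% interval -0.67 to 0.14) and Fanci at 161 and 176 (0.12, interval -0.27 to 0.51). The intervals overlap widely, and the difference between the genes was not tested. Fanca, of the core ligase complex, was at 310 and 305 (-0.02), and Fancc at 146 and 131 (-0.16).

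None of the 5 end joining genes or the 2 mismatch repair genes was called. The median log2 fold change was -0.02 in end joining and -0.08 in mismatch repair. Xrcc5 and Xrcc6 encode the Ku80 and Ku70 subunits that cap broken ends. Their values in the authors' deposited table were 377 and 368 (-0.04) and 438 and 432 (-0.02), and neither interval reached beyond -0.31 or 0.26. Prkdc, the kinase recruited by Ku, was at 298 and 280 (-0.09), the ligase gene Lig4 at 354 and 374 (0.08) and its scaffold Xrcc4 at 77.6 and 95.2 (0.30, 95% interval -0.24 to 0.83). Of the mismatch genes, Msh6, which recognises mispaired bases, was at 1104 and 1094 (-0.01, interval -0.18 to 0.15) and Pms2, the nuclease subunit, at 248 and 224 (-0.15, interval -0.49 to 0.19) in the authors' deposited table.

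Base excision and single-strand break repair held the most significant call, Tdg, of which the value is uncertain. Tdg encodes the glycosylase that removes thymine from G-T mispairs and oxidised methylcytosine from DNA. Its row in the authors' deposited table went from 618 in wild type to 1105 in knockout (log2 fold change 0.84, 95% interval 0.65 to 1.03, DESeq2 adjusted p 1.61e-16). The table also lists the predicted gene Gm9855, which it describes as a thymine DNA glycosylase and gives the same orthology group. That row fell in the same table, 729 in wild type against 5.96 in knockout (log2 fold change -6.93, DESeq2 adjusted p 3.31e-72). Summed, the rows were at 1347 in wild type and 1111 in knockout, a log2 ratio of -0.28, which is the opposite sign to that of Tdg alone. Tdg held 45.9% of the sum in wild type and 99.5% in knockout. No label says how reads were divided between the rows, so the direction for Tdg is not settled by this table. Tdg (chromosome 10 from 82629814 to 82650799, GRCm38.p6) also overlaps Glt8d2, which was not past the threshold (0.31).

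**Figure D3:**
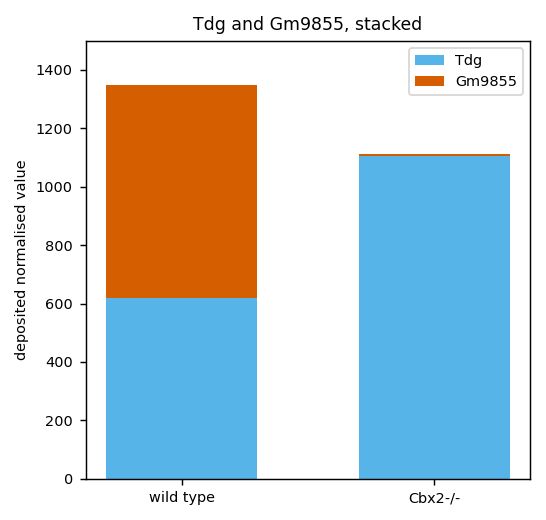
Deposited normalised value (vertical axis, from 0) of Tdg and of Gm9855 stacked for each genotype. The sum is 1347 in wild type and 1111 in Cbx2-/-, while the Tdg part rises from 618 to 1105.

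The other 7 genes of that group were not past the threshold. Apex1, the endonuclease that cuts at sites without a base, was the nearest, at 1299 and 1508 in the authors' deposited table (0.22, 95% interval 0.06 to 0.37, DESeq2 adjusted p 0.0676). Parp1, which marks breaks with ADP-ribose chains, was at 1562 and 1554 (-0.0071), its partner scaffold Xrcc1 at 751 and 750.0 (-0.0021) and the ligase gene Lig3 at 1113 and 1127 (0.02). The intervals of these 3 genes of single-strand break repair lay within -0.20 and 0.20. Lig1, the ligase of replication, was at 954 and 881 (-0.12), and the authors' deposited table gives the glycosylase genes Ogg1, for oxidised guanine, 202 and 211 (0.07) and Ung, for uracil, 130 and 122 (-0.09).

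Nucleotide excision repair, which removes bulky lesions, had no call among 3. Ercc1, subunit of the nuclease that cuts on the 5′ side of a lesion, was at 3269 and 3141 in the authors' deposited table (-0.06, 95% interval -0.17 to 0.05). This was the most precisely measured gene of the 49. Ercc2, a helicase of transcription factor TFIIH, was at 438 and 495 (0.18, interval -0.07 to 0.42), and Xpa, which verifies the lesion, at 144 and 120 (-0.26, interval -0.71 to 0.18).

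The order of the genes by level was largely the same in both genotypes. Levels are compared here as the deposited value per kilobase of the length given in the table. Ercc1 was the highest of the 49 with 2964 per kilobase in wild type and 2847 in knockout, followed by Apex1 (994 and 1154) and Topbp1 (491 and 423). Rad51b was the lowest with 9.49 and 12.1, and Palb2 (20.8 and 20.2) and Prkdc (23.5 and 22.1) were near it. The median was 85.4 per kilobase in wild type and 79.8 in knockout, beside 78.9 over all genes in wild type. In 44 of the 49 genes the rank moved by 3 places or fewer, and Wrn moved most, from rank 36 to rank 27. Within the MRN complex Nbn (269 per kilobase in wild type) was above Rad50 (184) and Mre11a (121), and Xrcc6 (207) was above its Ku partner Xrcc5 (147).

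**Figure D4:**
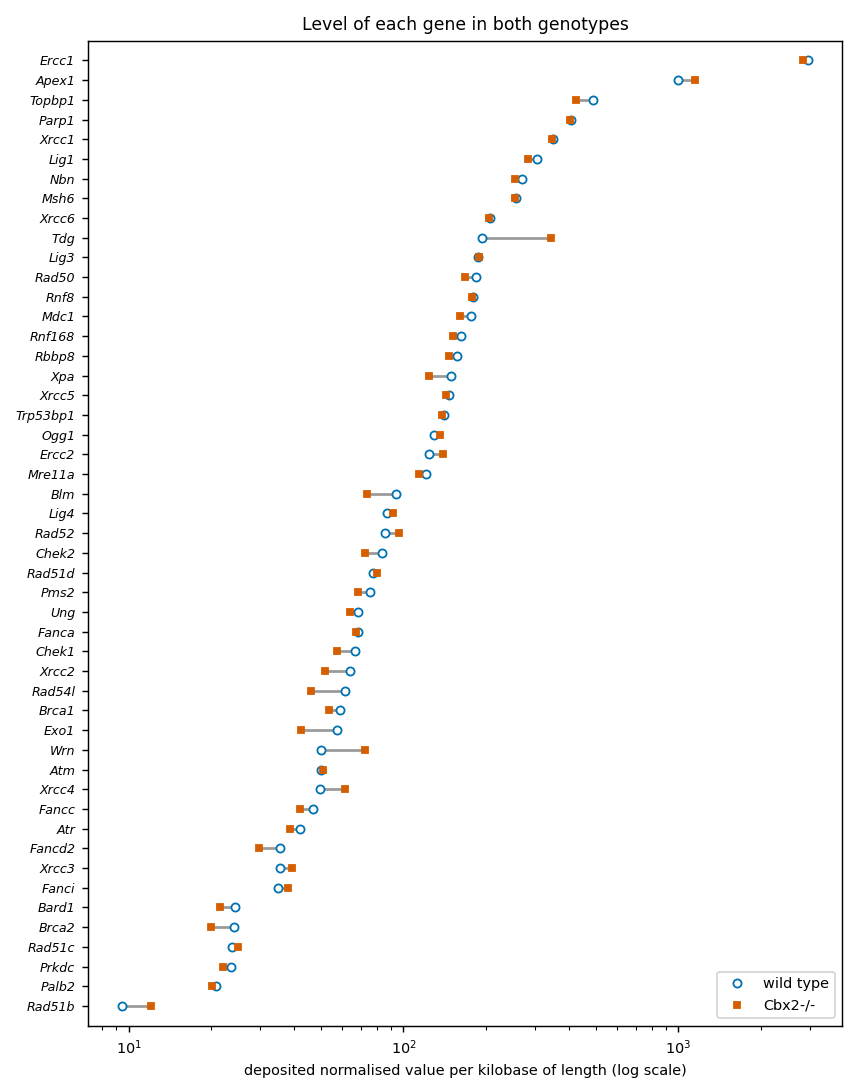
Deposited normalised value per kilobase (log axis) of each gene in wild type (open circles) and Cbx2-/- (squares), ordered by the wild-type level. Levels run from 9.49 (Rad51b) to 2964 (Ercc1) in wild type, and the Tdg row and Wrn show the widest shifts to the right, though Tdg summed with Gm9855 shifts to the left (-0.28).

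Members listed as peaking in S phase or as E2F targets lay lower than the others. Of these 14 genes (Brca1, Brca2, Bard1, Chek1, Rad54l, Fanca, Fancd2, Fanci, Exo1, Blm, Topbp1, Lig1, Ung and Msh6), 13 had a lower value in knockout and Fanci a higher one, with a median log2 fold change of -0.20 in the authors' deposited table. Among the other 35, 21 were lower and 14 higher, with a median of -0.02. Only Topbp1 of the 14 was past the threshold (7.14%, against 7.78% of all genes), and without it the median was -0.18. The difference between these groups of genes was not tested.

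Markers of proliferating cells moved the same way. All 20 had a lower value in knockout, 5 of them past the threshold and none higher, with a median log2 fold change of -0.15 and a summed deposited value of 39561 in wild type against 34643 in knockout. The most significant were Mcm6, a subunit of the replicative helicase, at -0.46, Rrm2, which makes deoxynucleotides, at -0.29, and Mki67 at -0.28 in the authors' deposited table. Their part in the lower values of S phase members was not tested. Fewer cycling cells and less RNA of these genes per cell cannot be told apart in bulk RNA.

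**Figure D5:**
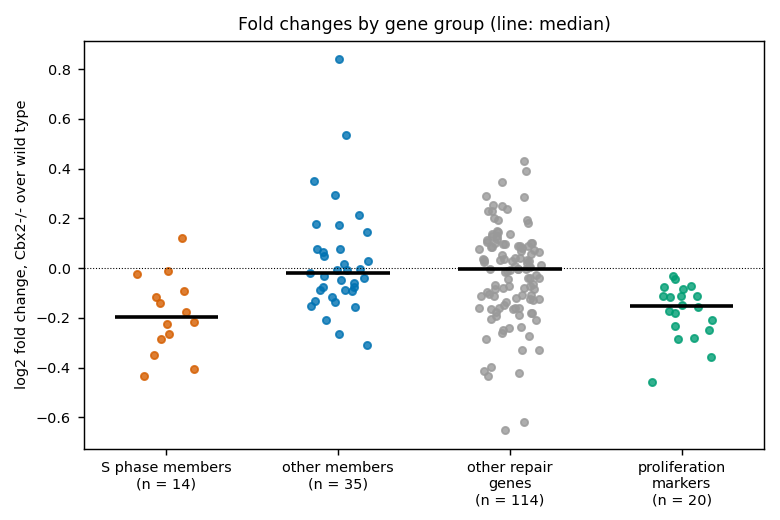
Deposited log2 fold change (vertical axis) of single genes in 4 groups, with the median as a line. The S phase members (median -0.20) and proliferation markers (-0.15) lie mostly below 0, and the other members (-0.02) and other repair genes (-0.0030) lie around it.

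A further 114 repair genes outside the 49 showed fewer calls and no uneven direction. Of them 1 rose and 1 fell (1.75%), against 7.78% of all genes, and the median log2 fold change was -0.0030 with 59 values (51.8%) below 0, close to the 49.3% of all genes. Clspn, the claspin that hands the ATR signal to CHK1, fell to 521 from 686 in the authors' deposited table (-0.40, 95% interval -0.63 to -0.17, DESeq2 adjusted p 0.0116). Sfr1, an accessory factor of recombination, rose from 3268 to 3831 (0.23, interval 0.12 to 0.34, DESeq2 adjusted p 0.00120). By role, the value was lower in knockout in 11 of 19 signalling genes (median -0.08), below the 11 of 12 of the signalling members. It was lower in 20 of 28 recombination genes (71.4%, median -0.08), above the 60.0% of the recombination members. In Fanconi and crosslink genes it was lower in 9 of 13 (median -0.14). In the remaining lists most values were higher: 2 of 7 were lower in end joining (median 0.10), 2 of 5 in mismatch repair (0.0082), 7 of 18 in base excision (0.05), 4 of 13 in nucleotide excision (0.04) and 4 of 11 in damage bypass and direct reversal (0.10).

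Facts of the samples that bear on these values are few. For the targeted transcript Cbx2 the authors' deposited table gives 347 in wild type and 29.0 in knockout (log2 fold change -3.58, DESeq2 adjusted p 2.55e-44), over the whole gene, not the deleted part. All 10 fibroblast markers were present, summing to 710606 in wild type against 642928 in knockout, 7 lower and 1 higher past the threshold. Of 17 macrophage markers 10 rose and none fell, and together they stood at 707 in wild type against 2030 in knockout. In the authors' deposited table Lyz2 (148 and 947), Ctss (15.7 and 82.4) and Cd68 (68.7 and 190) were the 3 with the smallest adjusted p. The other 7 were not past the threshold. Among them Csf1r, the highest of the 17 in wild type, was at 245 and 257 (log2 fold change 0.07). Aif1 (-0.38) and C1qb (-0.57) had the lower value in knockout. Because deposited values of genes with few reads are drawn in, the table holds no 0 for any gene. Among the recovered reads of macrophage markers the only 0 was in 1 knockout library of Aif1. Of 10 endothelial markers 2 rose (Esam, log2 fold change 3.03, and Cdh5, 2.39) and 1 fell (Flt1, -0.55). Of 6 epithelial markers 2 fell (Krt8, -3.71, and Krt18, -1.78). The most significant fibroblast markers were Thy1 (1.27), Dcn (-1.06) and Col3a1 (-0.38). Their part in the values of repair genes was not tested.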

How the data were processed

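RNA was measured in 2 libraries per genotype. The 4 ATAC-seq libraries are not analysed here. The single table used was made by the authors: it holds a normalised read signal, deposited as 1 value per genotype. Averaged, both columns give the mean of size-factor-scaled reads over the 4 libraries. The log2 fold changes, p-values and adjusted p-values are those deposited by the authors. The deposited length column is in bases, judged from its values. The authors name mm10, RSEM, DESeq2, HISAT2 and Bowtie2 in the submitters' processing notes. Versions, roles, filters and strand handling: not given in the sources used here.

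Deposited fold changes equal the log2 ratio of the columns within 9.13e-09, and the adjusted p-values equal a Benjamini-Hochberg adjustment over all 17441 genes within 1.33e-06. As the table has no counts for all libraries, the authors' DESeq2 test was used, with a call at an adjusted p under 0.05. Standard errors and 95% intervals were derived from the deposited fold change and p with a normal scale (Python 3.11.15, scipy 1.17.1). The deposited values sum to 19428299 in wild type and 18910077 in knockout. Reads per library were recovered where both columns were below 100 and exactly 1 set of whole numbers matched. The recovery was tested on simulated data, where unique matches grew rarer with the mean. Size factors of 1.01 and 0.935 (wild type) and 1.03 and 1.03 (knockout) were recovered. Replicate libraries were not copies: their recovered reads gave a chi-square per gene of 1.20 over 1257 genes (wild type) and 1.25 over 1371 genes (knockout).

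All 49 gene IDs matched RefSeq (GRCm38.p6). The members and lists were chosen with earlier results of these data known. Named genes are all 49 members, Cbx2, called genes of the other repair lists, the 3 most significant called markers of each marker list, and copies that the table ties to a member. Map1a, Glt8d2 and Purg (position), Aif1 (a read count of 0), and Csf1r and C1qb (macrophage markers that did not rise) were named after values were seen. Alternatives covered the adjustment, the threshold, a minimum fold change, the spread, centring and pseudocounts.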

Additional observations from a re-analysis of the deposited data

How the results depend on the processing

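The count of 3 called members was 5 with p adjusted over genes at or above the median and 5 at an adjusted p under 0.1 (3 higher and 2 lower in each), 0 with an absolute log2 fold change of at least 1 and 1 by Bonferroni, while the other settings gave 2 or 3. The count of 2 among other repair genes became 4, 5, 0 and 0 in those settings, 1 with the standard error raised by 20% and 3 after centring. For S phase members the count of 1 became 2, 2, 0 and 0, and 0 with the standard error raised by 20%. Fewer genes tested, a looser or a stricter rule account for these changes by construction. Centring moved all fold changes by the median of all genes, 0.0036. Of 44 recomputed medians of gene groups 42 kept their sign. The exceptions were nucleotide excision among genes at or above the median (0.06) and base excision without Tdg (-0.0021). The log2 fold change of Tdg turned to -0.28 when summed with Gm9855, an alternative added with the data in view, as were the count of called members without Tdg and the S phase values without Topbp1. Of 131 recomputed values of single members 127 kept their call and direction. This is largely so by construction and is no measure of stability. Readjusting p and raising the standard error leave the fold change as it is, and a raised standard error cannot add a call. Leaving out 1 library, the log2 ratio of recovered reads ran from 0.03 to 1.12 in Rad51b, from -0.03 to 0.21 in Rad51c and from 0.15 to 0.51 in Xrcc4. For the other members the table gives no values per library, so leaving out libraries was not run. No paired analysis was possible because the table holds 1 value per genotype, and the recovered reads carry no replicate number.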

Other observations

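The authors' table annotates genes with process terms, which gave a wider set chosen after the data were seen. Of 201 genes with the term DNA repair, 27 of them members, 1 rose and 7 fell (3.98% against 7.78% of all genes), with a median log2 fold change of -0.01. The genes that fell besides Clspn and Topbp1 included Pttg1 (-0.82), the securin gene, Pole (-0.40), the catalytic subunit of DNA polymerase epsilon, and Uhrf1 (-0.27), which guides maintenance DNA methylation, all from the authors' deposited table. Eya2, a phosphatase and transcriptional co-activator, was the gene that rose (1.67).

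Of 207 genes with the term cellular response to DNA damage stimulus, 20 of them members, 5 rose and 7 fell (5.80%). In the authors' deposited table the genes that rose were Pmaip1 (0.58), which encodes the cell death factor NOXA, Foxo1 (0.55), Sgk1 (0.47), Ccnd1 (0.17) and Cdkn1a (0.14), which encodes the cycle inhibitor p21. The terms for end joining (22 genes) and nucleotide excision repair (34 genes) had no gene past the authors' DESeq2 threshold, with 0 and 1 at an unadjusted p under 0.05. The term double-strand break repair (53 genes) had 1 call, Baz1b (-0.22), and its recombination branch (64 genes) had Sfr1 (0.23). Base-excision repair (31 genes) had 3 higher and 4 lower (22.6% against 7.78% of all genes). Among them Tdg (0.84) was higher in the authors' deposited table, and Gm9855 (-6.93), Hmgb1 (-0.21) and Usp47 (-0.14) were lower. Mismatch repair (19 genes) had 2 calls (10.5%), Tdg and Gm9855.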
